A study of Homo sapiens with 6 samples.

Results

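The 8 genes described here encode the insulin and IGF receptors (INSR, IGF1R, IGF2R), receptors of the ERBB family (EGFR, ERBB2, ERBB3) and the insulin receptor substrates IRS1 and IRS2. They were taken by gene symbol from a table of 16792 genes, which gave 7 of the 8, and EGFR was not analysed here. RNA had been measured in EndoC-βH1 (EndoCBH1 in the labels), a beta cell line made from human fetal pancreas, with siRNA against the homeobox factor MNX1 (siMNX1, 3 libraries, genotype labelled MNX1 knock down) or with siNT, taken here as a non-targeting siRNA (3 libraries, genotype labelled WT). The time between siRNA and harvest is not used here. Whether a replicate number stands for its own culture or its own siRNA is not labelled, and the spread behind each p-value may thus be technical.

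INSR and IGF1R are transmembrane tyrosine kinases that bind insulin and the insulin-like growth factors, and on activation they phosphorylate the adaptors IRS1 and IRS2, which recruit PI3 kinase and so switch on AKT. AKT in turn keeps FOXO transcription factors out of the nucleus, and FOXO factors are known activators of INSR, IRS2 and ERBB3 transcription in several cell types. IGF2R has no kinase: it clears IGF2 and carries mannose 6-phosphate tagged enzymes to lysosomes. ERBB2 binds no known ligand and signals by pairing with the other ERBB receptors, while ERBB3 binds neuregulins but has little kinase activity of its own and relies on its partner. In mouse beta cells, loss of IRS2 is known to lower beta cell mass.

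Promoter windows are shown for ERBB2, the called receptor, and for IGF1R, which was not called. They were chosen because they differ in base composition, and the IGF1R window has the highest GC content of the 6 below. This choice does not show that base composition goes with the call. RefSeq (GRCh38.p14) gave the 250 bases before the start site for 6 of the 7 genes (INSR, IGF1R, IGF2R, IRS1, IRS2 and ERBB2), on the gene's strand and 5′ to 3′. The ERBB2 window lies at chr17:39687844-39688093 (plus strand). The start it precedes is 11986 bases upstream of the start of the principal ERBB2 transcript in GENCODE 29, so the window does not show the principal start. PGAP3 overlaps ERBB2 on the opposite strand. Read on that strand, the window holds a start codon with no stop codon after it in frame. Its letters may thus include PGAP3 coding sequence and cannot be taken as those of an ERBB2 promoter alone. The IGF1R window lies at chr15:98648289-98648538 (plus strand). Capitals mark the GC box GGGCGG.
ERBB2: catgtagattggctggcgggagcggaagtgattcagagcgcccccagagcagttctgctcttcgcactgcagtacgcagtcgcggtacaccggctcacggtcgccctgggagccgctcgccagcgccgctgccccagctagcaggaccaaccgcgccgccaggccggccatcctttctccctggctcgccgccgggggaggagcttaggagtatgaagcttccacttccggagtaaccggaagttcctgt
IGF1R: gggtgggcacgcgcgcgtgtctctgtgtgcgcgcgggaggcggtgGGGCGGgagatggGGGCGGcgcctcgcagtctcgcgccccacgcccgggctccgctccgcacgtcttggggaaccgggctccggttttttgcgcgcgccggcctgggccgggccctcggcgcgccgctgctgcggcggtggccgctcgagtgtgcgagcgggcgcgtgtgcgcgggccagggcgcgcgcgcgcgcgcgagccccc
The GC box, searched on both strands, was found 2 times in the IGF1R window and 0 times in the ERBB2 window. Windows of INSR, IRS1, IRS2 and IGF2R held 4, 4, 5 and 6 copies, so 5 of 6 windows had at least 1, against 42.6% of 35116 promoter windows of the same length. GC content was 65.6% for ERBB2 and 76.4% to 81.2% for the other 5 windows, where the median of all windows was 58%. The other 5 windows precede starts that lie 0 to 380 bases upstream of the principal start. The ERBB2 window is thus not a like comparison with them, in GC content or in GC boxes. The homeodomain core TAATTA and the forkhead core GTAAACA, also searched on both strands, had 0 matches in the 6 windows, against 4.35% and 2.98% of all windows. These matches describe letters in the windows and are not binding sites.

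Of the 7 genes, ERBB2 alone passed the threshold, an adjusted p of 0.05 by limma over all 16792 genes. Its mean was 26.0% higher in siMNX1 than in siNT libraries. This made 1 of 7 genes higher, where 1.99% of all genes were called higher, and 0 of 7 lower, where 1.33% were called lower. At an unadjusted p under 0.05 by limma, 2 of 7 were higher (ERBB2 and IGF1R) and 1 was lower (IRS2), against 9.81% and 8.56% of all genes. The median log2 fold change of the 7 genes was 0.17, beside -0.0004 for all genes, and 6 of the 7 values were positive. All 7 have at least 8.14 kb of exon, so all genes are not a background of like length. IGF2R, whose value is that median, had 0.08 after a correction for exon length and GC content and 0.04 without siMNX1 replicate 2. INSR was negative in both settings (-0.03 and -0.13), while ERBB2 had 0.32 and 0.34. In bulk RNA, fewer cells that express a gene and less RNA per cell cannot be told apart. Values below are the authors' normalized counts.

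The targeted transcript was checked first. MNX1 had 1885, 1708 and 1751 normalized counts in siMNX1 replicates 1 to 3, against 2039, 2033 and 1988 in siNT replicates 1 to 3. Each siMNX1 library lay below each siNT library. Limma did not call MNX1 (log2 fold change -0.18, adjusted p = 0.116). Deposited totals of 18406479 to 18704645 per library follow the normalization and are not depths. Mitochondrial transcripts made up 5.43% to 6.49% of the siMNX1 totals and 5.39% to 6.81% of the siNT totals. All 15 fixed beta cell markers were in the table, and their summed value was 383198 to 398530 in siMNX1 and 311283 to 323709 in siNT libraries, with 4 higher and 1 lower. INS and CHGA, the most abundant of them, carry most of that sum, while 8 of the 15 had a negative log2 fold change and the median was -0.02. The lower one was IAPP, the islet amyloid gene, which had a low level in both groups, with means of 15.3 ± 3.76 in siMNX1 and 57.8 ± 16.1 in siNT libraries (SD, n = 3 each). Of the 4 delta cell markers, SST and HHEX were higher and RBP4 was lower, with sums of 1959 to 2035 in siMNX1 and 1348 to 1404 in siNT libraries. Acinar markers (2 of 9 in the table) summed to 585 to 606 in siMNX1 and 554 to 640 in siNT libraries, and ductal markers (2 of 6) to 1331 to 1432 in siMNX1 and 1138 to 1306 in siNT libraries. Mesenchymal, endothelial and immune markers (3 of 12) summed to 3959 to 4309 in siMNX1 and 4446 to 4743 in siNT libraries, a sum made up mostly of CD74, the 1 of the 3 with a negative log2 fold change (-0.18), while COL1A1 and PDGFRB had positive ones and limma called 0 of the 3. The part of these markers in the results on the receptors was not tested.

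ERBB2 (ENSG00000141736, chromosome 17, 39687914 to 39730426, plus strand, GRCh38) had 522, 492 and 481 normalized counts in siMNX1 replicates 1 to 3, against 397, 396 and 394 in siNT replicates 1 to 3. The groups were 84.1 normalized counts apart, and the siNT libraries were nearly equal. Means were 499 ± 21.4 in siMNX1 and 396 ± 1.82 in siNT (SD, n = 3 each), with a log2 fold change of 0.33 (SE 0.08, 95% interval 0.16 to 0.50, limma, adjusted p = 0.0477). The call was close to the threshold: it ended without any 1 of the 6 libraries (adjusted p from 0.0805 to 0.157), while the log2 fold change stayed between 0.30 and 0.36. It also ended with equal totals (adjusted p = 0.0525), an equal upper quartile (0.0512), no variance trend (0.073), a replicate block (0.122) and a correction for exon length and GC content (0.0589). PGAP3 and MIEN1, which overlap the ends of ERBB2 on the opposite strand, had log2 fold changes of -0.03 and -0.08. No source used here says how strand was handled, so reads of overlapping genes cannot be told apart.

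ERBB3 (ENSG00000065361, chromosome 12, 56076799 to 56103505, plus strand) had 169, 200 and 262 normalized counts in siMNX1 replicates 1 to 3 and 160, 265 and 181 in siNT replicates 1 to 3. The groups overlapped throughout, and the highest library of either group was about equally high. Means were 210 ± 47.5 in siMNX1 and 202 ± 55.3 in siNT (SD, n = 3 each). Its log2 fold change was 0.07 with the widest interval of the 7 genes (-0.40 to 0.53, limma, adjusted p = 0.902), so a change of the size seen for ERBB2 in either direction was not resolved. A protein-coding locus on the same strand that overlaps ERBB3 in the annotation (AC034102.2, mean 68.0) had a log2 fold change of -0.92, and reads could be split between them.

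**Figure D1:**
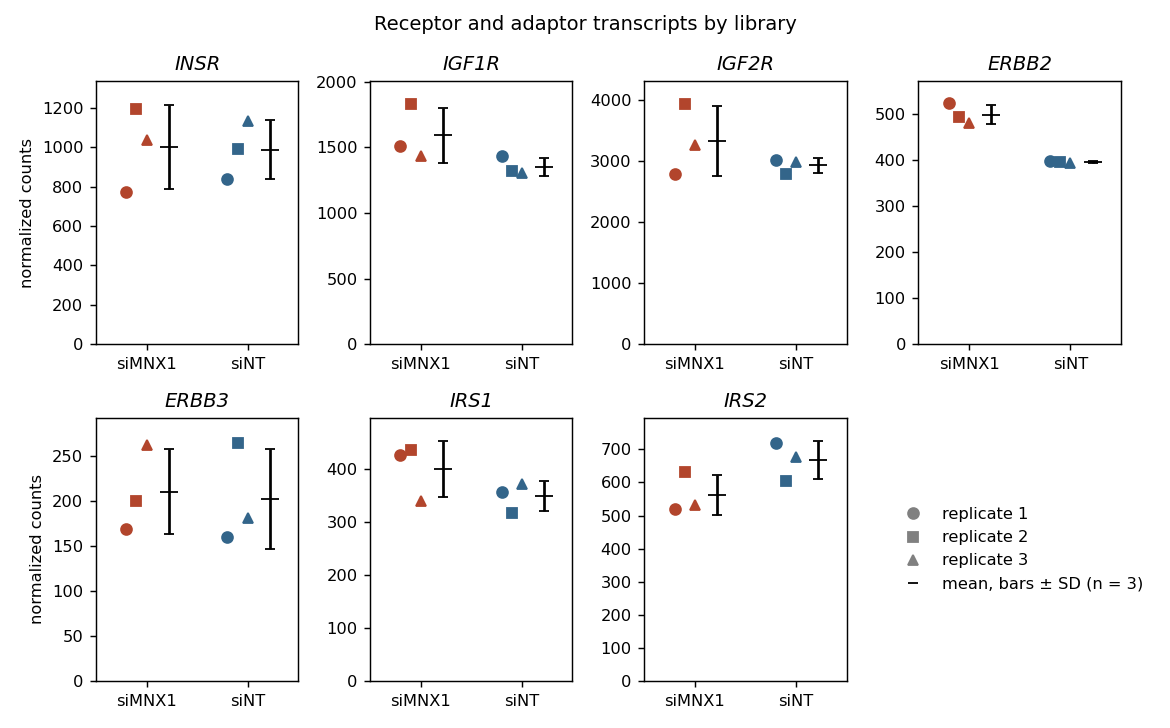
Normalized counts (vertical axes, from 0) of the 7 transcripts in siMNX1 libraries (red) and siNT libraries (blue), with 1 point per library, its shape giving the replicate number, and the mean ± SD beside it. ERBB2 is the gene whose groups stand clearly apart, at 481 to 522 in siMNX1 and 394 to 397 in siNT libraries.

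IGF1R (ENSG00000140443, chromosome 15, 98648539 to 98964530, plus strand) had 1512, 1830 and 1432 normalized counts in siMNX1 replicates 1 to 3, against 1431, 1317 and 1308 in siNT replicates 1 to 3. The groups did not overlap, but the lowest siMNX1 library exceeded the highest siNT library by only 0.162 normalized counts. Means were 1591 ± 211 in siMNX1 and 1352 ± 68.8 in siNT (SD, n = 3 each), and the log2 fold change of 0.23 (SE 0.09, 95% interval 0.03 to 0.43) did not pass (limma, adjusted p = 0.212). Together with ERBB2 this made 2 of 7 genes with no overlap and siMNX1 higher, where 12.0% of all genes had none, and 0 of 7 with siMNX1 lower, where 12.1% had none.

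INSR (ENSG00000171105, chromosome 19, 7112255 to 7294034, minus strand) had 772, 1195 and 1038 normalized counts in siMNX1 replicates 1 to 3 and 837, 991 and 1135 in siNT replicates 1 to 3. The siNT values lay inside the siMNX1 range. Means were 1002 ± 214 in siMNX1 and 988 ± 149 in siNT (SD, n = 3 each), with a log2 fold change of 0.01 (95% interval -0.34 to 0.36, limma, adjusted p = 0.987). The interval spans changes of the size seen for ERBB2, so the data do not show that INSR was the same in both groups. Gene-level values do not separate the known splice forms of the receptor.

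IGF2R (ENSG00000197081, chromosome 6, 159969099 to 160113507, plus strand) had 2791, 3935 and 3267 normalized counts in siMNX1 replicates 1 to 3 and 3019, 2790 and 2990 in siNT replicates 1 to 3. Replicates 2 and 3 of siMNX1 lay above the siNT libraries and replicate 1 lay among them. Means were 3331 ± 574 in siMNX1 and 2933 ± 125 in siNT (SD, n = 3 each), with a log2 fold change of 0.17 (95% interval -0.06 to 0.40, limma, adjusted p = 0.426). This value was 0.29 without siMNX1 replicate 1, 0.04 without siMNX1 replicate 2 and 0.08 after the length and GC correction.

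Both adaptors had values in opposite directions and neither passed. IRS2 (ENSG00000185950, chromosome 13, 109752698 to 109786568, minus strand) had 520, 632 and 532 normalized counts in siMNX1 replicates 1 to 3, against 720, 606 and 677 in siNT replicates 1 to 3. One siMNX1 library, replicate 2, exceeded the lowest siNT library. Means were 562 ± 61.3 in siMNX1 and 667 ± 57.9 in siNT (SD, n = 3 each), with a log2 fold change of -0.25 (SE 0.10, 95% interval -0.47 to -0.03, limma, adjusted p = 0.21). IRS1 (ENSG00000169047, chromosome 2, 226731317 to 226799759, minus strand) had 425, 436 and 340 normalized counts in siMNX1 replicates 1 to 3, against 357, 317 and 371 in siNT replicates 1 to 3. Replicate 3 of siMNX1 lay among the siNT libraries, and the other 2 lay above them. Means were 400 ± 52.6 in siMNX1 and 348 ± 28.1 in siNT (SD, n = 3 each), with a log2 fold change of 0.19 (95% interval -0.06 to 0.45, limma, adjusted p = 0.409). It ran from 0.13 without siNT replicate 2, or without siMNX1 replicate 2, to 0.31 without siMNX1 replicate 3.

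**Figure D2:**
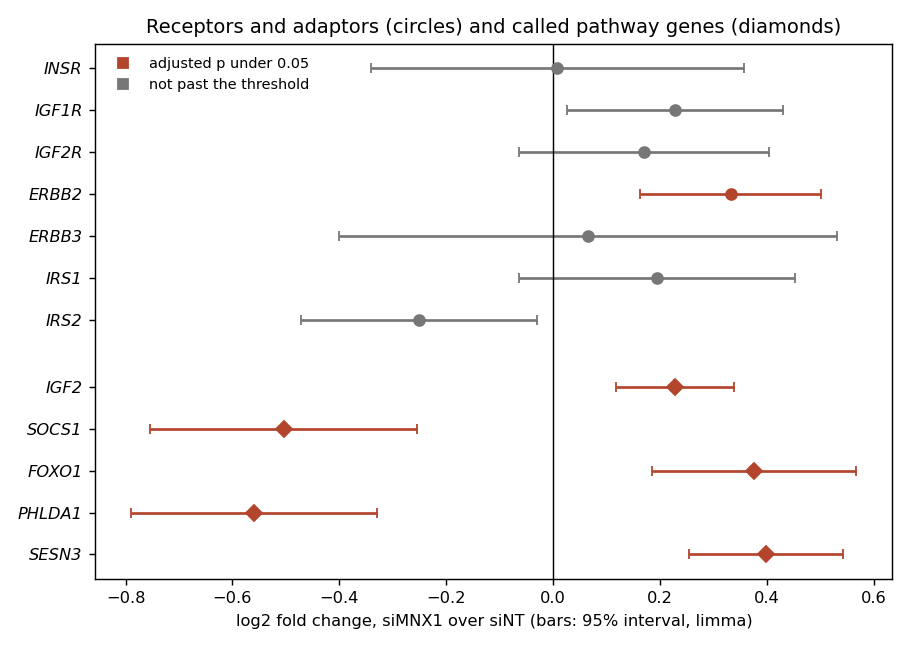
Log2 fold changes (horizontal axis, siMNX1 over siNT, bars giving 95% intervals from limma) of the 7 receptor and adaptor genes (circles) and of 5 other pathway genes that passed the threshold (diamonds), with calls in red. Of the circles, ERBB2 (0.33) is the called one, and the intervals of INSR, ERBB3, IGF2R and IRS1 include 0.

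Ratios within a library do not depend on how that library was scaled. IRS2 to IRS1 was 1.22, 1.45 and 1.57 in siMNX1 replicates 1 to 3, against 2.02, 1.91 and 1.82 in siNT replicates 1 to 3. The groups did not overlap, with means of 1.41 ± 0.174 in siMNX1 and 1.92 ± 0.0974 in siNT (SD, n = 3 each). The difference was -0.44 on the log2 scale, lower in 3 of 3 siMNX1 libraries (exact two-sided permutation test, p = 0.1, the smallest p that 3 against 3 libraries allow, and 0.3 adjusted over 3 ratios). INSR to IGF1R was 0.511, 0.653 and 0.725 in siMNX1 libraries and 0.585, 0.753 and 0.868 in siNT libraries, which overlapped (exact two-sided permutation test, p = 0.4, adjusted 0.5). ERBB3 to ERBB2 was 0.323, 0.406 and 0.544 in siMNX1 libraries and 0.404, 0.668 and 0.46 in siNT libraries, which also overlapped (exact two-sided permutation test, p = 0.5, adjusted 0.5).

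**Figure D3:**
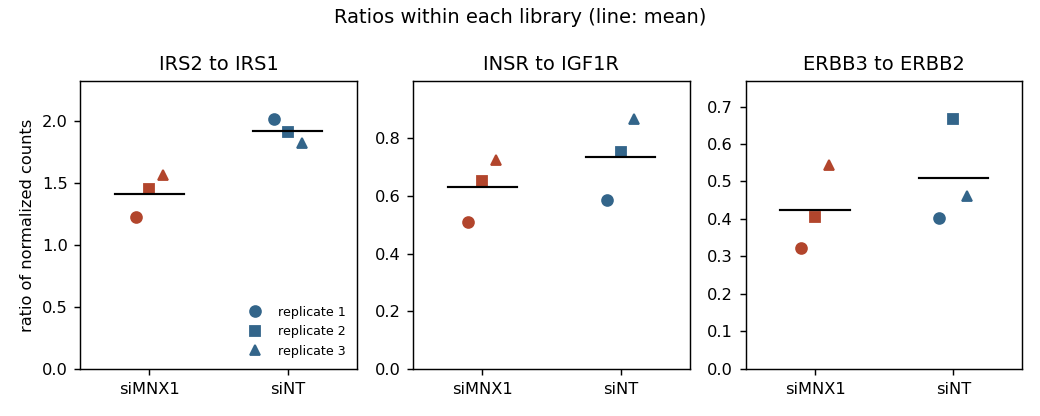
Ratio of normalized counts of 2 genes within each library (vertical axes, from 0), for siMNX1 libraries (red) and siNT libraries (blue), with shapes for replicate numbers and a line for the mean. The ratio of IRS2 to IRS1 is 1.22 to 1.57 in siMNX1 and 1.82 to 2.02 in siNT libraries, and the other 2 ratios overlap between groups.

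The siMNX1 libraries differed among themselves more than the siNT libraries for several of these transcripts. SiMNX1 replicate 2 held the highest value of all 6 libraries for 4 of the 7 genes, namely INSR, IGF1R, IGF2R and IRS1. Against the mean of the other 2 siMNX1 libraries, its log2 value was 0.42 higher for INSR, 0.31 for IGF1R, 0.38 for IGF2R, 0.26 for IRS2 and 0.20 for IRS1, and -0.03 for ERBB2 and -0.07 for ERBB3. All 7 genes have long transcripts, with 8.14 to 17.8 kb of annotated exon. The same difference had a median of 0.09 over the 3034 genes with at least 8 kb of exon and 0.01 over all genes. Without siMNX1 replicate 2, the log2 fold changes were 0.12 for IGF1R, 0.04 for IGF2R, -0.13 for INSR and -0.34 for IRS2, and IRS2 then had an adjusted p of 0.0949 by limma. The part of transcript length in these values was not tested beyond the length and GC correction.

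**Figure D4:**
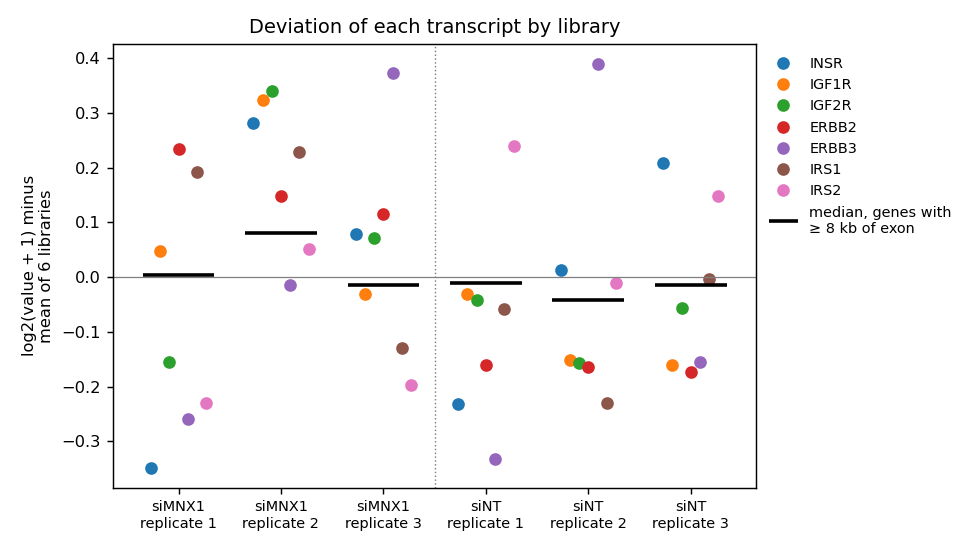
Deviation of each transcript in each library from its mean over 6 libraries (vertical axis, log2(value + 1) scale), siMNX1 libraries left of siNT libraries, with a black bar for the median of genes with at least 8 kb of exon. INSR, IGF1R and IGF2R lie high in siMNX1 replicate 2, where that median is 0.08, and ERBB2 lies above 0 in all siMNX1 and below 0 in all siNT libraries.

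Levels of different genes were compared per kilobase of exon. With all annotated exons as the length, the order in both groups was IGF2R, IGF1R, INSR, IRS2, ERBB2, IRS1 and ERBB3. IGF2R had 187 ± 32.2 normalized counts per kilobase in siMNX1 and 164 ± 6.99 in siNT, and ERBB3 had 23.2 ± 5.25 in siMNX1 and 22.4 ± 6.12 in siNT (SD, n = 3 each). Ranges of IGF1R and INSR overlapped within each group (103 to 131 and 73.9 to 114 in siMNX1, 93.8 to 103 and 80.1 to 109 in siNT), as did those of INSR and IRS2 (IRS2 64.0 to 77.7 in siMNX1 and 74.4 to 88.5 in siNT). The other neighbours did not overlap in either group. The order depends on the length used. With the principal transcript, INSR had 212 per kilobase in siMNX1 and 209 in siNT, beside 237 and 209 for IGF2R. INSR thereby came above IGF1R, which had 130 in siMNX1 and 111 in siNT. The mean of ERBB2 came above that of IRS2 (110 and 69.0 in siMNX1, 87.0 and 82.0 in siNT). In siNT, however, the ERBB2 range (86.6 to 87.3) lay inside that of IRS2 (74.4 to 88.5).

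The rest of the pathway was described from 13 fixed lists, which named 182 genes outside these 8, of which 158 were in the table and 24 were not analysed here. Limma called 3 of the 158 higher (1.90%) and 2 lower (1.27%), close to the 1.99% and 1.33% of all genes. The median log2 fold change was 0.01, beside -0.0004 for all genes. These counts therefore do not set the pathway apart. At an unadjusted p under 0.05 by limma, 20 of the 158 were higher and 15 lower, where 9.81% and 8.56% of all genes were. The unadjusted counts of single lists below are to be read beside these shares. INSRR and ERBB4, the related receptors, were not analysed here.

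Among the ligands, IGF2, a growth factor that binds IGF1R, IGF2R and INSR, rose. It had 40257, 41698 and 39342 normalized counts in siMNX1 replicates 1 to 3, against 35179, 32322 and 36146 in siNT replicates 1 to 3, with no overlap. Its log2 fold change was 0.23 (SE 0.05, limma, adjusted p = 0.0392), a call that ended without any 1 of the 6 libraries (adjusted p from 0.0679 to 0.124). IGF2 shares its locus with the read-through INS-IGF2 and the opposite-strand IGF2-AS, whose log2 fold changes were 0.17 and 0.29. Same-strand entries also overlap it, a second gene named IGF2 (mean 157, log2 fold change 0.36) and AC132217.1 (mean 993, log2 fold change 0.21). The reads of IGF2 are thus uncertain. Of 2 measured insulin and IGF ligand genes IGF2 was the 1 called, beside INS (log2 fold change 0.18, limma, adjusted p = 0.0656). Of the 5 measured EGF and neuregulin ligands, limma called 0, and 1 had an unadjusted p under 0.05. That gene, NRG2, an ERBB ligand of the neuregulin family, had 54.3 ± 7.07 in siMNX1 and 32.5 ± 0.193 in siNT (SD, n = 3 each), with a log2 fold change of 0.71 (limma, adjusted p = 0.0919). BTC, the betacellulin gene, had a log2 fold change of -0.02. Of 7 measured genes of IGF binding proteins and their regulators, 0 passed, adjusted or unadjusted, by limma, and IGFBP2 and IGFALS had log2 fold changes of 0.12 and 0.14.

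Of the 23 measured genes listed as negative regulators of the receptors and adaptors, 1 was lower and 0 were higher. At an unadjusted p under 0.05 by limma, 4 were lower and 3 higher, and the median was 0.06. The list also holds the adaptor GRB7, whose role as a negative regulator was not tested. SOCS1, which targets IRS proteins for degradation and restrains cytokine signalling, fell to 126, 129 and 132 normalized counts in siMNX1 replicates 1 to 3, against 192, 177 and 181 in siNT replicates 1 to 3. Every siMNX1 library lay below every siNT library, with a log2 fold change of -0.50 (SE 0.11, limma, adjusted p = 0.0423), and the call ended without any 1 of the 6 libraries (adjusted p from 0.0798 to 0.143). RMI2 overlaps SOCS1 on the opposite strand and had a log2 fold change of 0.09.

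In the PI3K and AKT list, 1 of 23 genes was higher and 0 were lower, with 5 higher and 1 lower unadjusted. It was FOXO1, the forkhead factor that AKT inactivates. FOXO1 had 1059, 1167 and 943 normalized counts in siMNX1 replicates 1 to 3, against 840, 767 and 827 in siNT replicates 1 to 3, with no overlap. Its log2 fold change was 0.38 (SE 0.09, limma, adjusted p = 0.0451), and the call held when siMNX1 replicate 3 was the library left out (adjusted p = 0.0281) and ended for each of the other 5 (highest adjusted p = 0.149). LINC00598 overlaps FOXO1 on the same strand, with a mean of 67.1 normalized counts and a log2 fold change of 0.79, so reads could be split between them. Of 17 measured FOXO target genes other than INSR, IRS2 and ERBB3, 1 was higher and 0 were lower (3 and 3 unadjusted), with a median of -0.02. SESN3, a stress-induced regulator of mTOR signalling, rose to 1633, 1869 and 1687 in siMNX1 replicates 1 to 3, against 1298, 1346 and 1286 in siNT replicates 1 to 3. Its groups did not overlap, and its log2 fold change was 0.40 (SE 0.06, limma, adjusted p = 0.0112), a call that ended without siNT replicate 3 (0.0635).

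In the RAS and MAPK arm, limma called 0 of 17 genes, with 1 higher and 1 lower unadjusted, and PTPN11, a phosphatase that acts between receptors and RAS, had a log2 fold change of -0.06. Of 16 measured ERK feedback and early genes, 1 was lower and 0 were higher (1 lower and 3 higher unadjusted), with a median of -0.12. PHLDA1, an early gene with a pleckstrin homology-like domain, fell to 244, 226 and 211 in siMNX1 replicates 1 to 3, against 327, 363 and 315 in siNT replicates 1 to 3. The groups were well apart, with a log2 fold change of -0.56 (SE 0.10, limma, adjusted p = 0.0204), and the call held without siMNX1 replicate 1 (0.0414) or siMNX1 replicate 2 (0.0436) and ended for each of the other 4 libraries left out (highest adjusted p = 0.0917). The mTOR list had 0 of 16 calls by limma (0 higher and 2 lower unadjusted). EIF4EBP2 and RPS6, a translation repressor and a ribosomal protein that lie downstream of mTOR, had log2 fold changes of -0.17 and -0.02. EIF4EBP2 passed when siMNX1 replicate 2 was left out (log2 fold change -0.22, limma, adjusted p = 0.0424).

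Limma also called 0 of 14 measured other adaptors (1 higher and 3 lower unadjusted), 0 of 8 genes of receptor processing and shedding (1 higher and 0 lower unadjusted) and 0 of 10 genes of lysosomal sorting with IGF2R (0 unadjusted). The adaptors SH2B1 and CRKL had log2 fold changes of 0.02 and 0.07. FURIN and ADAM10, proteases that process the insulin proreceptor and shed ERBB ligands, had 0.03 and 0.13, and after the length and GC correction ADAM10 had 0.02. For AP1G1 and VPS35, which sort cargo between the Golgi and endosomes, the values were 0.01 and 0.08.

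**Figure D5:**
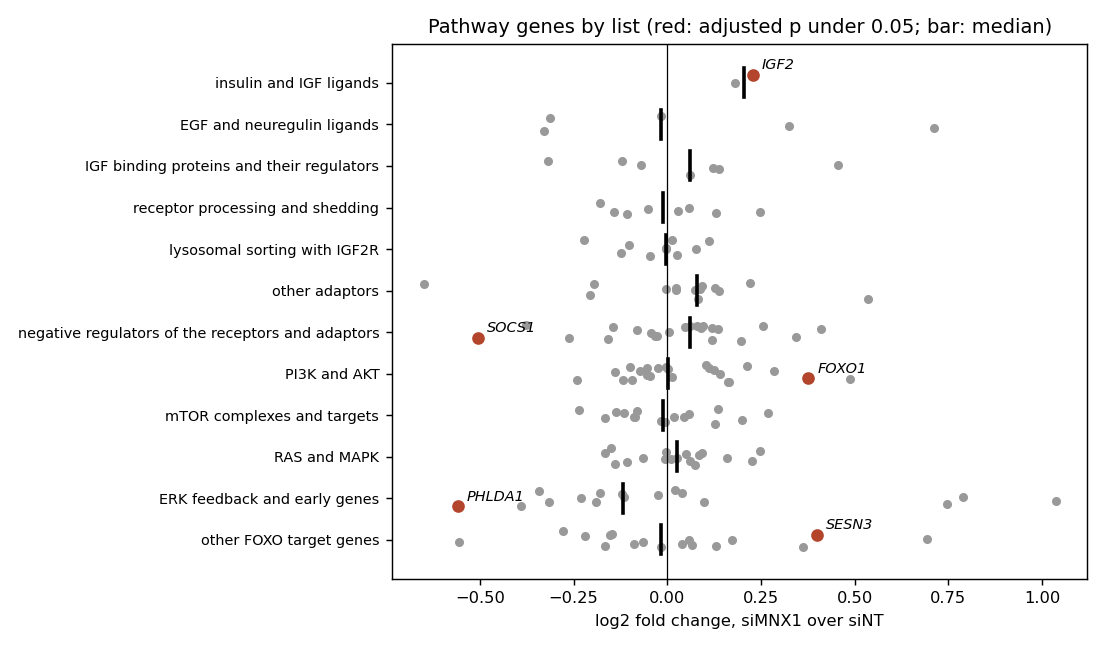
Log2 fold changes (horizontal axis, siMNX1 over siNT) of the measured pathway genes, 1 row per fixed list, with 1 point per gene, calls in red and named, and a black bar at the list's median. The 5 calls (IGF2, SOCS1, FOXO1, PHLDA1, SESN3) lie in 5 lists, and the list medians run from -0.12 to 0.20.

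Genes with the pattern most like that of ERBB2 were found by Pearson correlation of log2(value + 1) over the 6 libraries, among 12677 named genes with a mean of at least 50. They were IFT43, ALCAM and TMEM231, with r of 0.995, 0.994 and 0.994. ALCAM, a cell adhesion molecule, had 1863 ± 58.5 in siMNX1 and 1491 ± 21.8 in siNT (SD, n = 3 each, log2 fold change 0.32). IFT43 and TMEM231, both proteins of the primary cilium, had log2 fold changes of 0.15 and 0.77. Limma called ALCAM (adjusted p = 0.0121) and TMEM231 (0.0158) but not IFT43 (0.368). With 6 libraries in 2 groups high correlations are common, and the gene ranked 100 still had r of 0.967.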

How the data were processed

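RNA of 6 libraries (3 siMNX1 and 3 siNT, grouped by sample title) was prepared, per the labels' protocols, with the Ovation Solo kit (5 ng RNA input) and ribosomal depletion, although the labels' molecule field names polyA RNA. The values deposited by the authors are normalized counts, a signal per gene that is never negative and carries decimals. The submitters' processing notes list GRCh38 and, without their roles, DESeq, DESeq2 1.26.0, RSEM 1.3.1, STAR 2.7.6a and R 3.6.3. The annotation, the gene filter and the use of strand were not stated there. Only 25.8% to 47.4% of values under 10 lay within 0.02 of a whole multiple of one step, so whole reads were not recovered, depth is unknown, and no counting interval was computed. Over all pairs of libraries 53 gene values were identical, so no library was a copy of another.

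Values were analysed as log2(value + 1), a scale that understates changes of low genes, with limma 3.58.1 in R 4.3.3 (group as the only term, variance trend, no filter) and Benjamini-Hochberg adjustment over all 16792 genes. On data simulated for siMNX1 against siNT over these 16792 genes, 200 genes were changed, 50 at each fold. The procedure recovered 48% of the 1.5-fold changes, 68% at 2-fold, 98% at 4-fold and 96% at 8-fold. The measured receptors and adaptors all differed by less than 1.5-fold between groups, so recovery of changes of their size was not tested. Ratios and counts were made in Python 3.11.15 with pandas 2.3.3 and scipy 1.17.1. Positions and exon lengths came from GENCODE 29 (GRCh38). The 8 genes, the lists and the tests were chosen with earlier results of these data known. From each list, up to 4 genes past the threshold were named or, where none passed, the 2 most abundant, and the 3 genes most like ERBB2 were named, and 1 gene that this rule gave is not reported here. Alternatives were other pseudocounts (0.5 and 5), a minimum mean of 50, 2 scalings, 2 variance models, a replicate block and each library left out. The length and GC correction was chosen after seeing the data.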

Additional observations from a re-analysis of the deposited data

How the results depend on the processing

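Of the 7 receptors and adaptors, IGF1R, IGF2R, IRS1 and IRS2 kept their direction and stayed short of the threshold in all 15 alternatives. ERBB2 kept its direction in all 15 and its call in 4 (both pseudocounts, the minimum mean of 50 and the robust variance model). It missed the threshold with log2 fold changes of 0.33 for equal totals, 0.33 for an equal upper quartile, 0.33 without the variance trend, 0.33 with the replicate block and 0.32 after the length and GC correction. Without the variance trend, 131 genes were higher, 60 were lower and 1 pathway gene was called, and with the replicate block the counts were 162, 75 and 1. Whether the numbers pair the libraries is not labelled. Deviations of same-numbered libraries correlated at -0.01, -0.01 and -0.04, and no siMNX1 library correlated best with its own number. Correlations this near 0 show no large effect shared by number, but they cannot tell whether same-numbered libraries share a culture or a day. The replicate block also ended the calls of IGF2 (adjusted p = 0.114), SOCS1 (0.114), FOXO1 (0.108) and PHLDA1 (0.0571), and leaving out the variance trend ended those of IGF2 (0.200), FOXO1 (0.149), PHLDA1 (0.0584) and SESN3 (0.0759). With 1 library left out, higher genes numbered 133 to 257, lower genes 64 to 179 and called pathway genes 0 to 4, and these fits have fewer samples. Log2 fold changes then ran from 0.30 to 0.36 for ERBB2, from -0.13 to 0.18 for INSR, from -0.10 to 0.28 for ERBB3, from -0.21 to 0.10 for BTC, from -0.031 to 0.075 for SH2B1, from -0.011 to 0.036 for AP1G1, from -0.014 to 0.062 for FURIN, from -0.062 to 0.012 for RPS6 and from -0.0044 to 0.12 for VPS35. The length and GC correction turned INSR (-0.034) and AP1G1 (-0.053). The cause of these shifts was not tested. Read depth is unknown, so it cannot be said which of the low genes it limits.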
